A study of Rattus norvegicus with 24 samples.

Results

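Aif1 (ENSRNOG00000000853) and Itgam (ENSRNOG00000019728) encode the 2 proteins most often stained to find microglia in brain tissue, Iba1 and CD11b. They were picked by identifier as markers of microglial identity, with earlier results of these data known, and are 2 of the 32754 genes counted in the 24 libraries. Both had a CPM (a gene's counts scaled to a common library size with TMM factors) above 1 in at least 3 libraries, as did 12860 genes in all, and these 12860 genes were tested.

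All animals were Sprague-Dawley rats, and RNA was taken at postnatal day 9 from microglia of the whole brain without cerebellum and olfactory bulbs. From postnatal day 1, pups of both sexes were kept with their dams for 8 days in normoxia (Nx, room air with 21% O2) or in intermittent hypoxia (IH), in which O2 alternated between 10.5% and 21% in 2 min cycles for 8 hours a day. About 16 hours after the last exposure they received vehicle or lipopolysaccharide (LPS, a component of the bacterial cell wall) intraperitoneally, and cells were collected 3 hours later. The labels give LPS as 0.1 mg/mL and the vehicle as saline, whereas the series' design text gives 0.1 mg/kg, and the study's methods name HBSS as the vehicle. The 8 groups were Male Nx, Male Nx LPS, Male IH, Male IH LPS, Female Nx, Female Nx LPS, Female IH and Female IH LPS, with 3 biological replicates each. How many pups went into each replicate, and from how many litters, is not given in the sources used here, so p-values measure the spread between these samples.

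Iba1 is a small calcium-binding protein of macrophages and microglia that binds and bundles actin and takes part in membrane ruffling and phagocytosis. CD11b is the alpha M integrin chain. It pairs with the beta 2 chain CD18 (gene Itgb2) to form complement receptor 3, which binds complement fragment iC3b, fibrinogen and the endothelial adhesion protein ICAM-1 (gene Icam1). Both proteins are used to recognise microglia, but other macrophages, monocytes and, for CD11b, neutrophils also make them.

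The cells were captured on magnetic beads with an antibody against CD11b/c. The protein product of Itgam was thus the handle of the isolation, so the presence of Itgam RNA is no independent check of the cells, whereas Aif1 was not used to select them. In bulk RNA, a smaller share of cells of a type and less RNA per cell cannot be told apart. Marker lists for monocytes, neutrophils, lymphocytes, astrocytes, oligodendrocytes, neurons and endothelium were not analysed here, since 0 of their genes could be paired with an identifier.

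Between 6624453 and 8548714 reads were counted on genes per library, with a median of 7532796.5. Cxcl10, a chemokine gene that LPS induces, lay between 3.99 and 14.1 CPM in the 12 vehicle libraries and between 440 and 3192 CPM in 10 of the 12 LPS libraries. The other 2, labelled Male Nx LPS 2 and Male IH LPS 3, had 123 and 23.1 CPM. Whether these 2 received and responded to LPS as labelled could not be settled from the counts, and LPS means and effects that include them carry this doubt. In Male Nx 2, alignments with several possible places made up 23.4% of the total, whereas the other 23 libraries had 11.7% to 15.8%. The main LPS and sex effects are also given without these 3 libraries, as are the ratio tests and the main correlations, whereas effects within a sex are given over all libraries.

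Both genes were abundant in every library. Aif1 took 11358 to 25469 reads per library, or 0.166% to 0.311% of the reads counted on genes. Ranked by reads among all 32754 genes, it stood between 26th and 47th, with a median rank of 40. Itgam took 5012 to 10163 reads, or 0.0695% to 0.149%, and stood between 53rd and 184th, with a median rank of 128.5. By mean CPM over the 24 libraries Aif1 was 37th and Itgam 113th. These ranks compare reads that were not divided by transcript length, so they place each gene by its share of the library and not by its number of transcripts.

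**Figure D1:**
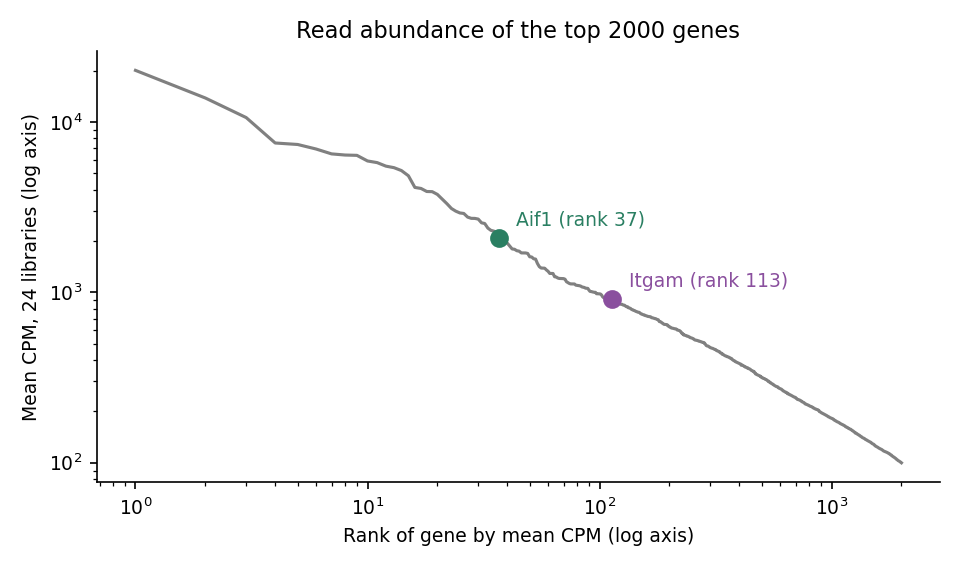
Mean CPM over the 24 libraries (vertical log axis) of the genes with the most reads, against their rank (horizontal log axis), with Aif1 and Itgam marked as points. Aif1 stands at rank 37 and Itgam at rank 113, both in the steep upper part of the curve.

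Aif1 in the male vehicle libraries read 1727, 3273 and 1924 CPM in Male Nx replicates 1, 2 and 3. In Male IH it read 2186, 2228 and 2665 CPM. One library, Male Nx 2, was thus far above the other 5, which lay between 1727 and 2665 CPM.

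After LPS the male libraries read 1887, 2564 and 2381 CPM of Aif1 in Nx. In Male IH LPS they read 1732, 2147 and 3250 CPM. The range of the male LPS libraries, 1732 to 3250 CPM, lay within that of the male vehicle libraries.

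In females, Aif1 was at 1762, 2053 and 1630 CPM in Nx and at 1931, 1617 and 1834 CPM in IH. Female Nx LPS libraries had 2143, 1911 and 1862 CPM. Female IH LPS libraries had 1749, 1778 and 1756 CPM, the tightest group of the study. No female library exceeded 2143 CPM, in any oxygen or injection group.

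Itgam in the male vehicle libraries read 806, 875 and 936 CPM in Nx. In Male IH it read 861, 816 and 851 CPM. These 6 libraries were close together, unlike those of Aif1.

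Male Nx LPS libraries had 1201, 694 and 864 CPM of Itgam, which include the lowest value of all 24. Male IH LPS libraries had 830, 777 and 884 CPM. The male LPS libraries overlapped those given vehicle.

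Female Nx libraries had 1454, 759 and 1028 CPM of Itgam, the widest group, and replicate 1 was the highest of all 24 libraries. Female IH libraries had 1036, 1006 and 735 CPM. After LPS, females had 939, 961 and 875 CPM in Nx, and 827, 1032 and 841 CPM in IH. All 4 female groups overlapped one another.

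**Figure D2:**
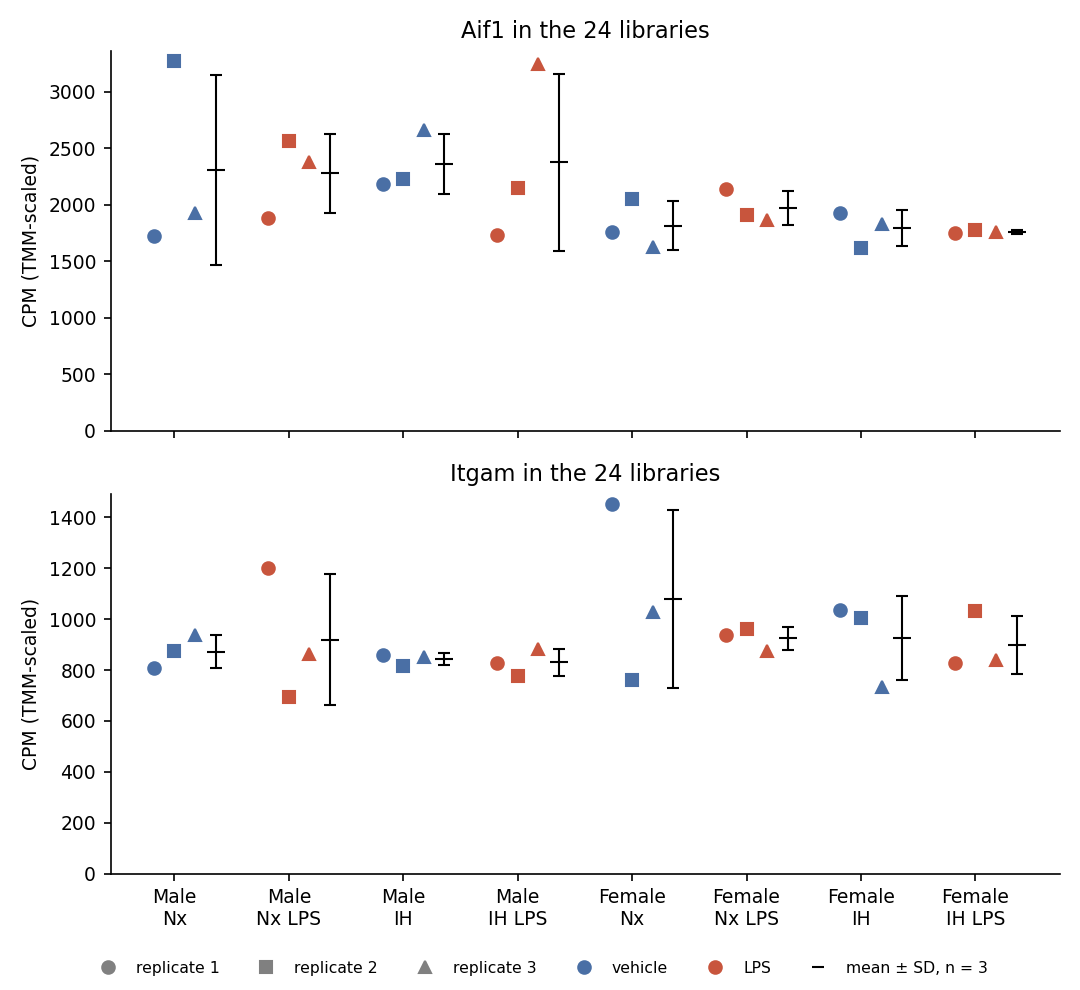
CPM of Aif1 (top) and Itgam (bottom) in each of the 24 libraries by group, with vehicle in blue, LPS in red, marker shapes for the replicate numbers, and the mean ± SD of each group (n = 3) in black. LPS and vehicle libraries overlap within each sex and oxygen group for both genes, and the highest Aif1 values are Male Nx 2 at 3273 CPM and Male IH LPS 3 at 3250 CPM.

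Over all 24 libraries Aif1 averaged 2083 ± 456 CPM (SD) and ranged from 1617 to 3273 CPM. Itgam averaged 912 ± 162 CPM and ranged from 694 to 1454 CPM. In descending order of group means, Aif1 was at 2376 ± 785 CPM in Male IH LPS, 2360 ± 266 in Male IH, 2308 ± 841 in Male Nx and 2277 ± 350.2 in Male Nx LPS (SD, n = 3 each). The female groups followed, with 1972 ± 150.2 CPM in Female Nx LPS, 1815 ± 216 in Female Nx, 1794 ± 160 in Female IH and 1761 ± 15.3 in Female IH LPS. The 4 male means thus lay above the 4 female means, but no gap between neighbours in this order exceeded the larger of their SDs.

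For Itgam the order began with Female Nx at 1081 ± 350.5 CPM, followed by Female IH at 925 ± 166, Female Nx LPS at 925 ± 44.7 and Male Nx LPS at 920 ± 258 (SD, n = 3 each). Female IH LPS at 900 ± 114 CPM, Male Nx at 872 ± 64.9, Male IH at 842 ± 23.7 and Male IH LPS at 830 ± 53.5 came after. Here too, no neighbours differed by more than the larger of their SDs. The Aif1 and Itgam orders did not begin or end with the same groups.

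The spread between replicates differed widely from group to group. The coefficient of variation of Aif1 ran from 0.867% in Female IH LPS to 36.5% in Male Nx, and that of Itgam from 2.82% in Male IH to 32.4% in Female Nx. With 3 values a group, each of these is itself a rough estimate. Around the 8 group means, the residual SD of log2 CPM was 0.27 for Aif1 and 0.25 for Itgam (16 residual degrees of freedom), against a median of 0.34 over the tested genes. These SDs include Male Nx LPS 2, Male IH LPS 3 and Male Nx 2, and are not given without them. The SE of the LPS effect in Nx, tested below, was 0.15 for Aif1 with these 3 libraries and 0.10 without. For Itgam it was 0.14 with them and 0.15 without. Of all tested genes, 36.6% had a smaller SD than Aif1 and 31.7% a smaller SD than Itgam. Most tested genes are far less abundant, and among the 500 genes nearest in abundance 67.2% had a smaller SD than Aif1 and 57% a smaller SD than Itgam. Both genes stand near the top of the abundance order, so most of the 500 nearest to each were less abundant than it. These sets are thus not closely matched in abundance. Within them, and with the 3 libraries included, both genes had a spread above the median.

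The effect of LPS was tested within each oxygen group, with both sexes weighted equally, by edgeR's quasi-likelihood F test on all 24 libraries and Benjamini-Hochberg adjustment over the tested genes. In Nx, Aif1 averaged 2125 ± 293 CPM after LPS and 2062 ± 612 CPM after vehicle (SD, n = 6 each). The fitted log2 fold change was 0.05 with an SE of 0.15 and a 95% interval of -0.27 to 0.37, which is a fold between 0.831 and 1.29, and edgeR's adjusted p was 0.876. Itgam in Nx averaged 922 ± 166 CPM after LPS and 977 ± 253 CPM after vehicle. Its log2 fold change was -0.07 with an SE of 0.14 and an interval of -0.37 to 0.22, or a fold between 0.775 and 1.16 (edgeR, adjusted p = 0.793). LPS and vehicle libraries overlapped for both genes.

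Neither gene passed the FDR threshold of 0.05 for LPS in Nx, where 2070 of the 12860 tested genes did, or 16.1%, with 1191 higher and 879 lower. Among the 200 most abundant genes, which include Aif1 and Itgam, 25 passed, or 12.5%. Of all tested genes, 87.8% had a fitted change larger in size than that of Aif1 and 82.1% larger than that of Itgam.

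In IH, Aif1 averaged 2069 ± 600 CPM after LPS and 2077 ± 367 CPM after vehicle (SD, n = 6 each). The fitted log2 difference was -0.01, with an SE of 0.15 and an interval of -0.32 to 0.31, a fold between 0.798 and 1.24 (edgeR, adjusted p = 0.988). Itgam averaged 865 ± 88.5 CPM after LPS and 884 ± 115 CPM after vehicle. Its log2 fold change was -0.03 with an SE of 0.14 and an interval of -0.32 to 0.26, a fold between 0.799 and 1.20 (edgeR, adjusted p = 0.954). Neither gene passed, where 921 genes did, or 7.16%, with 649 higher and 272 lower, and 10 of the 200 most abundant, or 5%. The 921 depended on single libraries: it was 602 without Male IH LPS 1, 1602 without the 2 low-Cxcl10 libraries and 1699, or 13.2%, without Male Nx 2 as well. A fitted change larger in size than that of Aif1 was found in 97.5% of tested genes, and one larger than that of Itgam in 90.2%.

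Without Male Nx LPS 2 and Male IH LPS 3, the low-Cxcl10 LPS libraries, the LPS effect on Aif1 was 0.0033 in Nx and -0.16 in IH on the log2 scale, with edgeR adjusted p of 0.991 and 0.575. For Itgam it was 0.0093 in Nx and -0.05 in IH, with edgeR adjusted p of 0.976 and 0.877. With Male Nx 2 also left out, the Aif1 effect was 0.16 in Nx and -0.16 in IH, with edgeR adjusted p of 0.305 and 0.323. The Itgam effect was then -0.0051 in Nx and -0.06 in IH, with edgeR adjusted p of 0.988 and 0.850. The sign of these small differences depended on single libraries, and none passed the threshold.

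Within each sex and over all libraries, LPS effects in Nx had opposite signs in males and females for both genes. These effects within a sex were not refitted with libraries left out. In males the log2 fold change of Aif1 was -0.02 in Nx and 0.01 in IH, and that of Itgam 0.08 and -0.02. In females it was 0.12 and -0.03 for Aif1, and -0.22 and -0.04 for Itgam. The interaction of sex and LPS was -0.05 for Aif1, with an interval of -0.50 to 0.40, and 0.16 for Itgam, with an interval of -0.25 to 0.57 (male minus female, log2 scale). Each has an edgeR adjusted p that rounds to 1.00. Both values depended on single libraries: the Aif1 interaction was 0.12 without Male Nx 2, and that of Itgam 0.02 without Female Nx 1. Here 0 of the tested genes passed edgeR's quasi-likelihood test, 0% as background, 169 had an unadjusted p under 0.05, and edgeR's likelihood ratio test and DESeq2 also called 0.

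**Figure D3:**
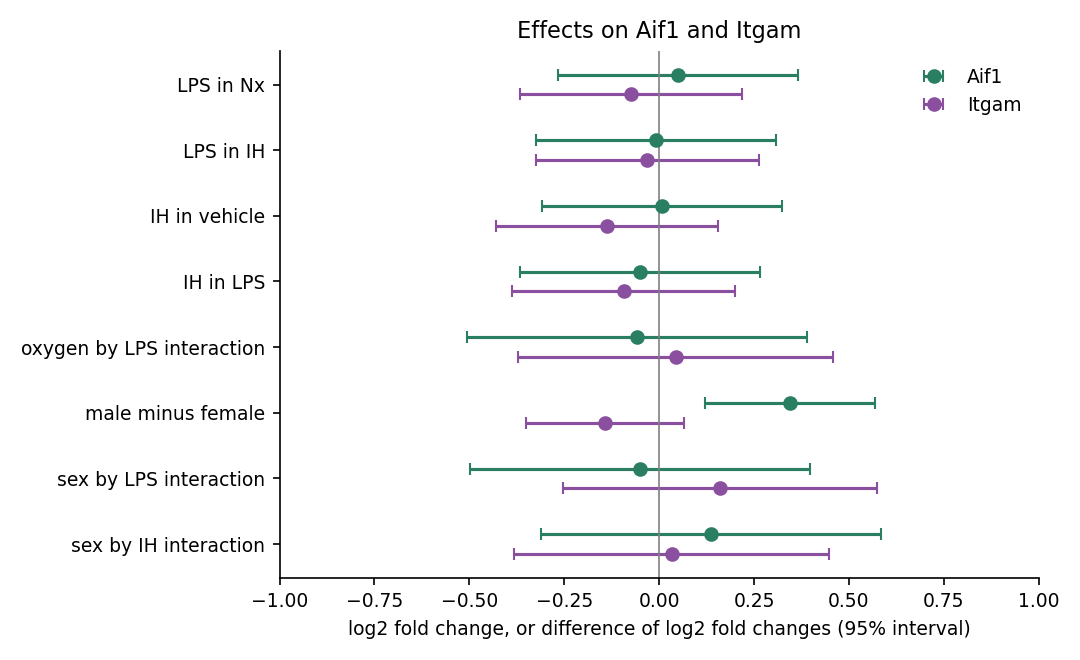
Fitted log2 fold changes of Aif1 (green) and Itgam (purple) for LPS, IH and sex, and differences of log2 fold changes for the interactions, as points with 95% intervals (horizontal axis). Every interval includes 0 except that of Aif1 for male minus female, which runs from 0.12 to 0.57.

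IH was compared with Nx after vehicle and, separately, after LPS. The vehicle and LPS comparisons have no libraries in common, but each shares its libraries with the LPS comparisons above. After vehicle, the 6 IH libraries had 1617 to 2665 CPM of Aif1 with a median of 2058, and the 6 Nx libraries 1630 to 3273 CPM with a median of 1843. The log2 fold change was 0.01, with an interval of -0.31 to 0.32. Itgam ran from 735 to 1036 CPM in IH, with a median of 856, and from 759 to 1454 CPM in Nx, with a median of 905. Its log2 fold change was -0.14, with an interval of -0.43 to 0.16. The high end of the Nx range of each gene was set by 1 library, Male Nx 2 for Aif1 and Female Nx 1 for Itgam. Without Female Nx 1 the Itgam change was -0.00019, and without Male Nx 2 the Aif1 change was 0.18, on the log2 scale.

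After LPS, Aif1 ran from 1732 to 3250 CPM in IH and from 1862 to 2564 CPM in Nx. The log2 fold change was -0.05, with an interval of -0.37 to 0.27. Itgam ran from 777 to 1032 CPM in IH and from 694 to 1201 CPM in Nx, with a log2 fold change of -0.09 and an interval of -0.39 to 0.20. Without the 3 libraries set apart the changes were -0.15 for Aif1 and -0.20 for Itgam, and single libraries turned both signs, to 0.041 for Aif1 without Male IH LPS 1 and 0.026 for Itgam without Male Nx LPS 1. The edgeR adjusted p of both genes rounds to 1.00 in both comparisons. No gene at all passed for IH, 0% as background: edgeR's quasi-likelihood test, its likelihood ratio test and DESeq2 each called 0, with 130 genes at an unadjusted p under 0.05 after vehicle and 378 after LPS.

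Within sexes, the IH effect on Itgam after vehicle was -0.22 in females, with an interval of -0.64 to 0.19, and -0.05 in males, with an interval of -0.46 to 0.36 (log2 scale). For Aif1 it was -0.02 in females and 0.03 in males. After LPS it was -0.16 in females and 0.06 in males for Aif1, and -0.04 and -0.15 for Itgam. The interaction of sex and IH was 0.14 for Aif1, with an interval of -0.31 to 0.58, and 0.03 for Itgam, with an interval of -0.38 to 0.45. Single libraries turned both signs. For Aif1 it was -0.0098 without Male IH LPS 3 and 0.31 without Male Nx 2, and for Itgam -0.10 without Female Nx 1.

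Whether the LPS effect differed between IH and Nx was tested as an interaction. The difference of log2 fold changes, IH minus Nx, was -0.06 for Aif1, with an interval of -0.51 to 0.39, and 0.04 for Itgam, with an interval of -0.37 to 0.46. It was -0.32 for Aif1 and -0.058 for Itgam without the 3 libraries set apart, each with an edgeR adjusted p that rounds to 1.00. For Aif1, the LPS effects behind that -0.32 were 0.16 in Nx and -0.16 in IH, with SEs of 0.102 and 0.0975. An interval of the interaction in that setting is not given here. With single libraries left out the interaction ran from -0.23 to 0.033 for Aif1 and from -0.093 to 0.16 for Itgam. Neither passed, nor did any other gene in this test or in that of sex and IH, 0% as background in edgeR's quasi-likelihood test. At an unadjusted p under 0.05 stood 182 genes for oxygen and LPS and 88 for sex and IH, and edgeR's likelihood ratio test and DESeq2 called 0 in both. With both sexes weighted equally, the intervals of the LPS and IH effects reach -0.43 and 0.37 on the log2 scale, and within a sex they reach -0.64 and 0.57, and changes of any size within these intervals remain compatible with the counts.

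Of the comparisons made over all 24 libraries, sex gave the largest fitted difference for Aif1. This did not hold without the 3 libraries set apart. There the sex difference was 0.16, the LPS effects 0.16 in Nx and -0.16 in IH, and the interaction of oxygen and LPS -0.32 (log2 scale). The 12 male libraries ran from 1727 to 3273 CPM with a median of 2207, and the 12 female libraries from 1617 to 2143 CPM with a median of 1806. In 8 of the 12 male libraries Aif1 was above every female library, and in 10 it was above the female median. The mean was 2330 ± 527 CPM in males and 1835 ± 157 CPM in females (SD, n = 12 each).

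The fitted log2 difference of Aif1, male minus female, was 0.35 with an SE of 0.11 and an interval of 0.12 to 0.57, a fold between 1.09 and 1.48. By edgeR's quasi-likelihood test the unadjusted p was 0.00427 and the adjusted p 0.0833, so Aif1 did not pass over all tested genes. In that test 51 of 12860 genes passed, or 0.397%, 35 of them higher and 16 lower in males, while 3297 genes had an unadjusted p under 0.05 and Aif1 was 660th in order of p. The 51 depended on single libraries, falling to 11 without Male Nx LPS 2 and reaching 1520 without Female Nx 2. It did pass in edgeR's likelihood ratio test (adjusted p = 0.0452) and in DESeq2 (log2 difference 0.34, adjusted p = 0.0425), which called 715 and 882 genes. Of all tested genes, 23.7% had a larger fitted difference between the sexes.

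The male minus female difference of Aif1 was 0.35 in Nx, 0.40 in IH, 0.21 in Nx LPS and 0.43 in IH LPS on the log2 scale. Each of these 4 rests on 3 libraries a side, and each 95% interval included 0. Without Male Nx LPS 2 and Male IH LPS 3 the overall difference was 0.25 (edgeR, adjusted p = 0.234), and without Male Nx 2 as well it was 0.16 (edgeR, adjusted p = 0.359). The difference kept its direction but was 0.16 in place of 0.35 without these 3 male libraries, which hold 3 of the 4 highest Aif1 values.

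Itgam did not follow Aif1 between the sexes. Male libraries ran from 694 to 1201 CPM with a median of 856, and female libraries from 735 to 1454 CPM with a median of 950, and 1 male library was above the female median. The mean was 866 ± 122 CPM in males and 958 ± 189 CPM in females (SD, n = 12 each). The fitted log2 difference, male minus female, was -0.14 with an SE of 0.10 and an interval of -0.35 to 0.07 (edgeR, adjusted p = 0.371). Without the 3 libraries set apart it was -0.11 (edgeR, adjusted p = 0.666).

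Read proportions outside genes moved with Aif1. The share of alignments that fell in no annotated gene ran from 14.7% to 21.2%, with a median of 17.1% in male and 18.3% in female libraries. In the 3 libraries with the most Aif1, Male Nx 2, Male IH LPS 3 and Male IH 3, it was 14.7% to 15.9%, and in the other 21 it was 14.97% to 21.2%. Across the 24 libraries, Pearson's r between log2 CPM of Aif1 and this share was -0.69 and Spearman's rho -0.64. Within males r was -0.79 and within females -0.55, and without the 2 libraries farthest from the median share it was -0.64 (n = 22). Without the 3 libraries set apart r was -0.51 (n = 21). For Itgam r was 0.40 and rho 0.42, and r was 0.36 without these 3. Aif1 and the share of alignments at more than 1 place had r of 0.57, which fell to 0.29 without Male Nx 2 alone and was 0.31 without all 3. These are descriptions over libraries that share their preparation, and the part of read composition in the sex difference was not tested. CPM is scaled to the reads counted on genes, whereas the shares outside genes are percentages of all tallied alignments.

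Aif1 and Itgam did not vary together across libraries. Pearson's r of their log2 CPM was -0.31 and Spearman's rho -0.20 (n = 24), and r was -0.17 within males and -0.28 within females (n = 12 each). With the 8 group means subtracted, r was -0.18. Leaving out the 2 libraries farthest from the median of Aif1 gave -0.40, and leaving out the 3 set apart gave -0.29. The values share the scaling of each library.

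**Figure D4:**
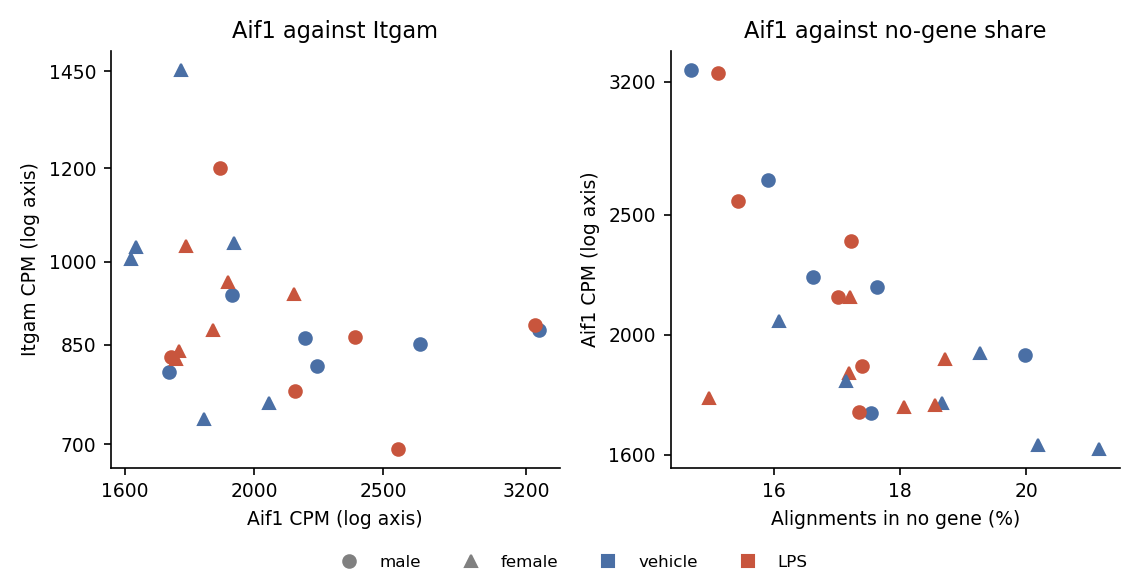
Each of the 24 libraries as a point (circles male, triangles female, vehicle blue, LPS red), with Itgam CPM against Aif1 CPM on log axes (left) and Aif1 CPM on a log axis against the percentage of alignments in no gene (right). Aif1 and Itgam have r of -0.31, and Aif1 and the no-gene share r of -0.69, with Male Nx 2 and Male IH LPS 3 at the top left on the right.

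The ratio of the 2 genes within a library does not depend on how libraries are scaled. Reads of Aif1 divided by reads of Itgam gave 1.21 to 3.74 per library, with a median of 2.13. Because the transcripts differ in length, the ratio is compared between libraries only and says nothing of which RNA had more molecules. It was lowest in Female Nx 1 and highest in Male Nx 2, both vehicle libraries in normoxia.

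Differences of the mean log2 ratio of Itgam to Aif1 were tested by a two-sided exact permutation test, exchanging labels within each sex, in 4 comparisons of 12 libraries. LPS minus vehicle gave -0.14 in Nx (exact permutation p = 0.61) and 0.0017 in IH (exact permutation p = 0.99). IH minus Nx gave -0.15 after vehicle (exact permutation p = 0.5) and -0.01 after LPS (exact permutation p = 0.97). Adjusted over the 4 comparisons, each p was 0.99, where the smallest p that the 400 labellings allow is 0.005. Without the 3 libraries set apart, the differences were -0.14 and 0.10 for LPS in Nx and IH, and -0.29 and -0.05 for IH after vehicle and LPS, with exact permutation p of 0.185 or more. In none of the 4 comparisons did the balance of the 2 RNAs shift by more than the libraries varied.

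Some genes tracked Aif1 more closely than Itgam did. Over the 24 libraries the log2 CPM of 283 of the other 12859 tested genes had a Pearson's r with Aif1 above 0.8, and 81 had one below -0.8. The closest was ENSRNOG00000012748, with r = 0.94, and the 5 closest lay between 0.92 and 0.94. With group means subtracted the same identifier came first, with r = 0.94, and the counts were 259 and 103. These counts rested on the libraries set apart: over the other 21, they were 10 and 0, and with group means subtracted 44 and 13, although ENSRNOG00000012748 was again the closest without that subtraction, with r = 0.89. For Itgam no gene reached 0.8 in either direction, and the closest, ENSRNOG00000008986, had r = 0.79, with the 5 closest between 0.75 and 0.79. With group means subtracted ENSRNOG00000006995 came first, with r = 0.86, and 5 genes were above 0.8. Over the other 21 libraries, 3 genes lay above 0.8 and 3 below -0.8, and with group means subtracted 123 and 70, so the counts for Itgam moved the other way. These identifiers could not be paired with gene names here, and the libraries behind each r share depth and read composition.

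Of the 16 listed genes of beta 2 integrins and their partners, 2 could be paired with an identifier, Itgam itself and Icam1, whose protein is a ligand of CD11b/CD18. Icam1 read 146, 112 and 115 CPM in Male Nx, 142, 122 and 126 in Male IH, 106, 124 and 106 in Female Nx and 127, 96.1 and 106 in Female IH. After LPS it read 1075, 229 and 1559 CPM in Male Nx LPS, 925, 701 and 228 in Male IH LPS, 1414, 1120 and 1408 in Female Nx LPS, and 626, 553 and 1289 in Female IH LPS. Every LPS library was above every vehicle library, and the 2 lowest LPS libraries were those with the low Cxcl10.

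The log2 fold change of Icam1 for LPS was 3.24 with an SE of 0.36 in Nx (edgeR, adjusted p = 5.58e-06) and 2.58 with an SE of 0.35 in IH (edgeR, adjusted p = 8.13e-05). After LPS, IH minus Nx was -0.65 with an interval of -1.35 to 0.04 on the log2 scale and did not pass (edgeR, unadjusted p = 0.0641, adjusted p rounding to 1.00). Without the 3 libraries set apart, the LPS effects were 3.43 in Nx and 2.76 in IH, and IH minus Nx was -0.69 with an interval of -1.10 to -0.28, which again did not pass over all tested genes (edgeR, unadjusted p = 0.00254, adjusted p = 0.859). Icam1 had an identifier only through the study's list of genes lower after IH in LPS-treated females of these same libraries. A lower value in IH was thus favoured by that choice, and these IH differences are not independent evidence. In the same libraries, then, the RNA of the ligand rose with LPS while that of the receptor chain Itgam stayed between 694 and 1454 CPM. The difference between the 2 genes' responses was not tested.

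Of 10 listed LPS-response genes, 4 could be paired with an identifier. Their identifiers come from the study's own list of genes lower after IH in LPS-treated females of these same libraries. Neither their response to LPS nor its difference between Nx and IH is thus independent evidence. All 4 rose with LPS in Nx by edgeR's quasi-likelihood test, against 16.1% of all tested genes called: Cxcl10 by 8.42, Ptgs2 (the inducible cyclooxygenase) by 4.43, Icam1 by 3.24 and Il1a (the cytokine interleukin-1 alpha) by 2.27 on the log2 scale. In IH 3 of the 4 rose, against 7.16% of all tested genes called, and Il1a had a log2 fold change of 1.35 (edgeR, adjusted p = 0.0791). Without the 3 libraries set apart Il1a passed in IH too, at 1.49 (edgeR, adjusted p = 0.0249), in a setting where 13.2% of tested genes were called. The LPS response was not alike in all LPS libraries. Il1a was at 20.6 CPM in Male Nx LPS 2, 19.02 CPM in Male IH LPS 3 and 31.1 CPM in Female IH LPS 1, inside the vehicle range of 5.41 to 33.4 CPM, and Ptgs2 was at 1.02 CPM in Male IH LPS 3, where vehicle libraries reached 1.11 CPM.

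**Figure D5:**
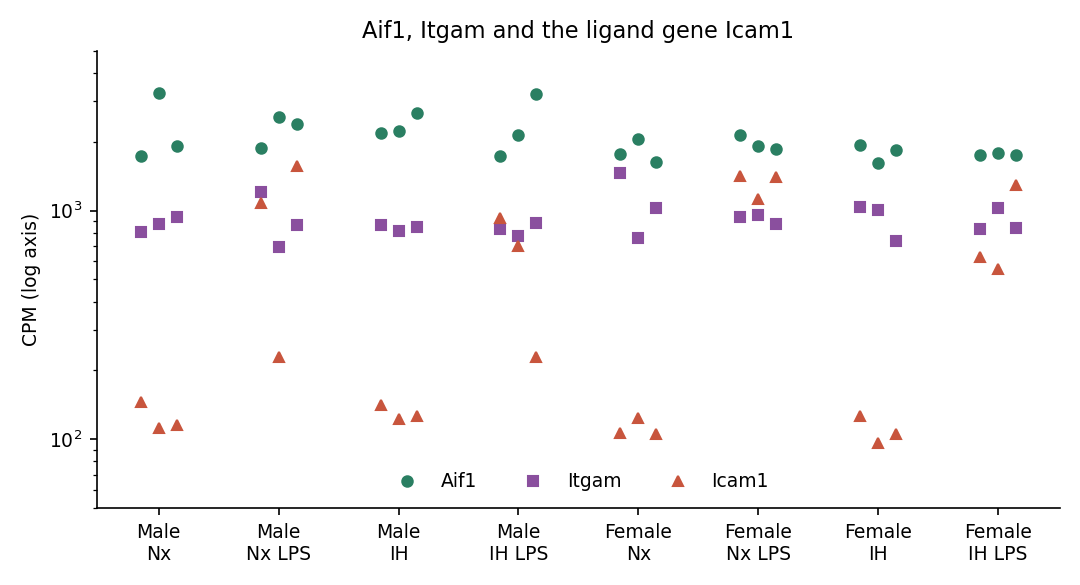
CPM (log axis) of Aif1 (green circles), Itgam (purple squares) and Icam1 (red triangles) in the 3 replicates of each group. Icam1 lies between 96.1 and 146 CPM in the vehicle libraries and between 228 and 1559 CPM after LPS, while Aif1 and Itgam keep their ranges.

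By the order of genes in the RefSeq annotation of assembly GRCr8, Aif1 lies beside Ncr3, Lst1, Ltb and Tnf on one side and Prrc2a on the other, in the gene cluster of the major histocompatibility complex. Itgam is followed by Itgax and Itgad, which encode the alpha chains CD11c and CD11d, its close relatives. No annotated neighbour overlapped either gene. The deposited counts used another assembly, rn6, and kept the strand of each read. Reads placed at more than 1 site were tallied apart from genes, so reads shared with a related integrin gene would be missing from Itgam rather than added to it.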

How the data were processed

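RNA was sequenced from 24 microglia samples, 3 in each of 8 groups. Per the study's methods, stranded mRNA libraries were aligned with TopHat2 (version 2.1 in the submitters' processing notes, build rn6) and counted with HTSeq using the stranded reverse option. The authors deposited raw counts per Ensembl gene, without normalization, 1 file a sample. HTSeq's tallies of reads outside genes (14.7% to 21.2% in no gene, 11.7% to 23.4% at more than 1 place, 0.265% to 0.435% ambiguous, as percentages of all tallied alignments) were kept out of library sizes and tests.

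The tests used edgeR 4.0.16 in R 4.3.3, with a filter keeping genes whose CPM exceeded 1 in 3 or more samples, TMM, a mean for each of 8 groups, quasi-likelihood F test, Benjamini-Hochberg adjustment over 12860 genes, FDR threshold 0.05. Each SE is the log2 fold change divided by the square root of F. Log2 CPM used a prior count of 2. DESeq2 1.42.0 was an alternative. The scripts were tested on simulated data.

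Samples were grouped by their titles, and depth was 6624453 to 8548714 counts. Samples of a group differed beyond counting noise (chi-square per degree of freedom 7.81 or more over 24 pairs), so none was a duplicate of another in its group. Samples of different groups were not compared in this way. The members and gene lists were chosen with earlier results of these data known. Files and reference tables pair no Ensembl identifier with a symbol, so identifiers of Aif1 and Itgam came from the choice of members and 4 others from the study's table, and most listed genes were not analysed here. Named genes were Aif1, Itgam, at most 4 per list, and the genes most like each. Protein and promoter sequences were not used here.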

Additional observations from a re-analysis of the deposited data

Results flagged for a closer look

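Of 20 measures in groups of 6 libraries, 3 had a library separated from the rest by more than Dixon's 95% limit, where chance gives about 1. Aif1 was at 3273 CPM in Male Nx 2, and at 1630 to 2053 CPM in the other 5 Nx vehicle libraries. It was at 3250 CPM in Male IH LPS 3, and at 1732 to 2147 CPM in the other 5 IH LPS libraries. The share of alignments at more than 1 place was 23.4% in Male Nx 2, and 11.7% to 13.8% in the other 5. Itgam in the same libraries had 875 and 884 CPM, near its median of 869 CPM over all 24.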

How the results depend on the processing

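Of 588 recomputed values for Aif1, Itgam and their ratio, 534 kept their direction and side of the threshold, 50 took the other direction without passing it, and 4 passed it, all 4 for Aif1 between the sexes. Those 4 were edgeR's likelihood ratio test (0.35, adjusted p = 0.0452), DESeq2 (0.34, adjusted p = 0.0425), and edgeR's quasi-likelihood test without Female Nx 2 (adjusted p = 0.0396) or Male Nx 3 (adjusted p = 0.0445). The cause of the changes below was not tested.

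With library totals alone in place of TMM, the log2 LPS effect in Nx on Aif1 was -0.016 and the interaction of sex and IH for Itgam -0.020. With only the groups compared in the fit, the IH effect on Aif1 after vehicle was -0.00046. Genes called between the sexes, 51 as reported, numbered 115 with library totals alone, 173 without a filter, 330 with the replicate block, 715 with the likelihood ratio test and 882 with DESeq2. The labels tie replicate numbers to no litter, batch or day, and over 84 same-numbered pairs the deviations from group means had a mean r of 0.05, with 37 pairs above 0.1, so the numbers were not used as pairs. That 17 of 24 samples, though not all, correlated best with their own number is a hint of pairing from the data, not from the design. The replicate block changed no call of Aif1 or Itgam.

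Both settings that leave out libraries set apart were chosen after seeing the data. Without the 2 low-Cxcl10 LPS libraries, Itgam was 0.0093 for LPS in Nx, -0.064 for the interaction of oxygen and LPS and -0.075 for that of sex and IH, with 1602 genes called for LPS in IH and 13 between the sexes. Without these and Male Nx 2, the same interactions were -0.058 and -0.080, with 1699 genes for LPS in IH, 13 between the sexes, and 1 each for IH after vehicle and the interactions of oxygen and LPS, sex and LPS, and sex and IH.

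With each library left out in turn, LPS in Nx ranged from -0.035 to 0.22 for Aif1, from -0.19 to 0.063 for Itgam, and from 1437 to 2552 genes. LPS in IH ranged from -0.16 to 0.083 for Aif1, from -0.10 to 0.014 for Itgam, and from 602 genes (without Male IH LPS 1) to 1375. IH after vehicle ranged from -0.078 to 0.18 for Aif1 and from -0.24 to -0.00019 for Itgam, and IH after LPS from -0.20 to 0.041 and from -0.18 to 0.026. The interaction of oxygen and LPS ranged from -0.23 to 0.033 for Aif1 and from -0.093 to 0.16 for Itgam. The sex difference ranged from 0.26 (without Male Nx 2) to 0.39 for Aif1, with adjusted p from 0.0396 to 0.166, from -0.20 to -0.07 for Itgam, and from 11 genes (without Male Nx LPS 2) to 1520 (without Female Nx 2). The interaction of sex and LPS ranged from -0.20 to 0.12 for Aif1 and from 0.02 to 0.26 for Itgam, and that of sex and IH from -0.0098 to 0.31 and from -0.10 to 0.15. The log2 ratio ranged from -0.31 to -0.0042 for LPS in Nx, from -0.10 to 0.10 for LPS in IH, from -0.32 to -0.03 for IH after vehicle and from -0.15 to 0.16 for IH after LPS. Genes called for IH and for the 3 interactions were 0 in each of these fits.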
